A study of Rattus norvegicus with 2 samples.

Results

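The glucocorticoid receptor, the enzyme that supplies its ligand, and direct targets were examined in rat cervical lymph nodes as a set of 10 genes: Nr3c1, Nr3c2, Hsd11b1, Fkbp4, Fkbp5, Tsc22d3, Sgk1, Klf9, Cebpd, and Zbtb16. They were taken by name, with every noncontrol probe that the array files assign to them, which gave 13 probes for 10 of the 36174 gene names on the array. RNA of cervical lymph nodes from male Sprague-Dawley rats, 10 to 12 weeks old, was measured on 2 one-color Agilent microarrays. The C array came from the control group without restraint, and the RS30 array came from the group restrained for 30 min, lying supine on a board. Rats of both groups received halothane and then an overdose of pentobarbital before the nodes were taken. The label of the stressed array gives restraint stress but no time, so the 30 min was taken from the methods. The scan recorded in the headers of both arrays predates the period that the methods give for the experiments, and the recorded scanner model differs from the one the methods name. The sources do not say whether each RNA was that of 1 rat or of a pool. With 1 array per group, no difference below has a replicate check, and no test between the groups was possible.

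Glucocorticoids diffuse into cells and bind the glucocorticoid receptor, a transcription factor held ready in the cytoplasm by heat shock proteins and immunophilins. The bound receptor moves into the nucleus and raises or lowers the transcription of its targets, among them genes that in turn dampen the response. In lymphoid tissue, glucocorticoids are known for restraining inflammatory gene expression and for effects on lymphocyte survival and traffic.

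Each probe value is the background-subtracted spot intensity, and each difference is RS30 minus C on the log2 scale after the 75th percentile of the array was subtracted. That percentile lay at 189 for C and at 176 for RS30. The scanner software marked 54.7% (C) and 54.9% (RS30) of the 45598 probes as well above background. Genes that met this criterion in C, in RS30, or in both were compared, which gave 21096 genes with a median difference of 0.02. The spot error given beside a difference is the scanner software's own error for the spots, carried to the log2 difference, and it does not cover variation between rats. For a single bright spot, such as that of Fkbp5, this error was 0.14 on each array. Probes with repeated bright spots had a smaller median SD, 0.052 in C and 0.055 in RS30, so the error is not a measured spread. The label of the tissue fitted its markers: 7 of 7 T cell, 5 of 5 B cell, and 7 of 7 macrophage marker genes were above background. Their median differences were -0.16, 0.10, and 0.00, with none past 2-fold. Differences above 0 were found for 1 T cell, 3 B cell, and 3 macrophage markers. The lowest difference was that of the T cell marker Cd5, at -0.97. Intensities of different probes are not comparable with each other, so no gene is ranked above another by level.

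The probes of the 4 members with the largest differences are shown by their first 30 of 60 bases, as the array files list them, to identify what was measured; no base is marked.
Cebpd: gagcagacgccgcccgaattgctacagttt
Tsc22d3: atggagtcctgtggtagacaagaagagtaa
Klf9: ccgaatttacactaaacaagacagaccttc
Fkbp5: gagtggtgggtaagcagatgacattgaaat

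The upstream regions of Tsc22d3, Klf9, and Fkbp5 are printed because these members were all higher on the RS30 array. Each covers the 250 bases before a transcription start of the RefSeq annotation on GRCr8, 5′ to 3′ on the strand of the gene. Capitals mark the TATA box (TATAAA), the core of the cAMP response element (TGACG), the CCAAT box (CCAAT), and the GC box (GGGCGG), searched on both strands.
Tsc22d3, chrX:109010035-109010284, minus strand: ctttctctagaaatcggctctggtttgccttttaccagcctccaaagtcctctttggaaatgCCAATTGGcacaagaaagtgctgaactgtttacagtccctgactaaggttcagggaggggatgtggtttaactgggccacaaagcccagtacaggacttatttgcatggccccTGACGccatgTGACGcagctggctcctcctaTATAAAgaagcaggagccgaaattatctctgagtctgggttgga
Klf9, chr1:230126396-230126645, plus strand: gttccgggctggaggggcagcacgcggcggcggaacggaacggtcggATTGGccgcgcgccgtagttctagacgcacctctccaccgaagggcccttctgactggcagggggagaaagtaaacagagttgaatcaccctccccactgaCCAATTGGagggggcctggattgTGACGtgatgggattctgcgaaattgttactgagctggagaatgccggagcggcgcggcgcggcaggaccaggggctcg
Fkbp5, chr20:6543556-6543805, minus strand: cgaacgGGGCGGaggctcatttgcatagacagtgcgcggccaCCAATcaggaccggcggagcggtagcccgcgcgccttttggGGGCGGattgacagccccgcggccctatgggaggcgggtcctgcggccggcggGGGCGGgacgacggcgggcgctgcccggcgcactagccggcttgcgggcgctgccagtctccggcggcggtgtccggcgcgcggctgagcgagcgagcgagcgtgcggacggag

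The Tsc22d3 window, 1 of 3 for that gene, held a TATA box beginning 44 bases before the start and 2 copies of TGACG, the nearer of them 65 bases before it. The other windows of Tsc22d3 held 1 and 3 GC boxes and 0 matches to the TATA box, TGACG, or the CCAAT box. Which start gave the RNA that the probe measured was not tested. The Klf9 window held 1 copy of TGACG, 79 bases before the start, and 3 matches to the CCAAT box. The Fkbp5 window held 3 GC boxes and had a GC content of 76%. In CCAATTGG, a match on each strand overlaps the other. RefSeq windows were matched for 6 of the 10 members, 11 windows in all: Nr3c1, Fkbp4, Fkbp5, Tsc22d3, Sgk1, and Klf9. The 6-base arm of the glucocorticoid receptor element (TGTTCT, or AGAACA on the other strand) was found in 0 of these 11 windows and in 17.5% of 33469 windows of the same length over all genes. The GC box was found in 8 of 11 windows and in 30.5% of all windows, the TATA box in 3 of 11 and 12.9%, and TGACG in 2 of 11 and 18.2%. A match is only a match of letters in this window, and many receptor binding sites lie far from the starts of their genes.

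The receptors and the ligand-supplying enzyme differed between the arrays by about the spot error or less. Nr3c1, the glucocorticoid receptor, had 3 probes well above background on both arrays, all on the minus strand of chromosome 18 in rn4, the build named in the array files. Its brightest probe, the second in the plot of member probes (chr18:32457965-32458024), read 674 in C and 663 in RS30, a difference of 0.08 (spot error 0.20). The first probe (chr18:32371607-32371666) read 118 and 102, a difference of -0.11 (error 0.21). The third probe (chr18:32375401-32375460) read 37.2 and 41.4, a difference of 0.25 (error 0.23). The 3 probes, which span 86418 bases, thus lay on both sides of 0, and none was farther from it than 1.12 spot errors.

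Nr3c2, the mineralocorticoid receptor, which binds the same steroids with high affinity, gave low signal with both of its probes. Its brighter probe (chr19:32528010-32528068, minus strand) read 14.8 in C and 13.5 in RS30, a difference of -0.04 (error 0.34). The other probe (chr19:32530204-32530263, minus strand) read 2.39 and 2.16 and stayed below the background criterion on both arrays. Hsd11b1, which regenerates active corticosterone from its inactive form inside cells, read 167 in C and 138 in RS30 (chr13:109063624-109063683, minus strand). Its difference was -0.18 with a spot error of 0.21, smaller than that error.

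**Figure D1:**
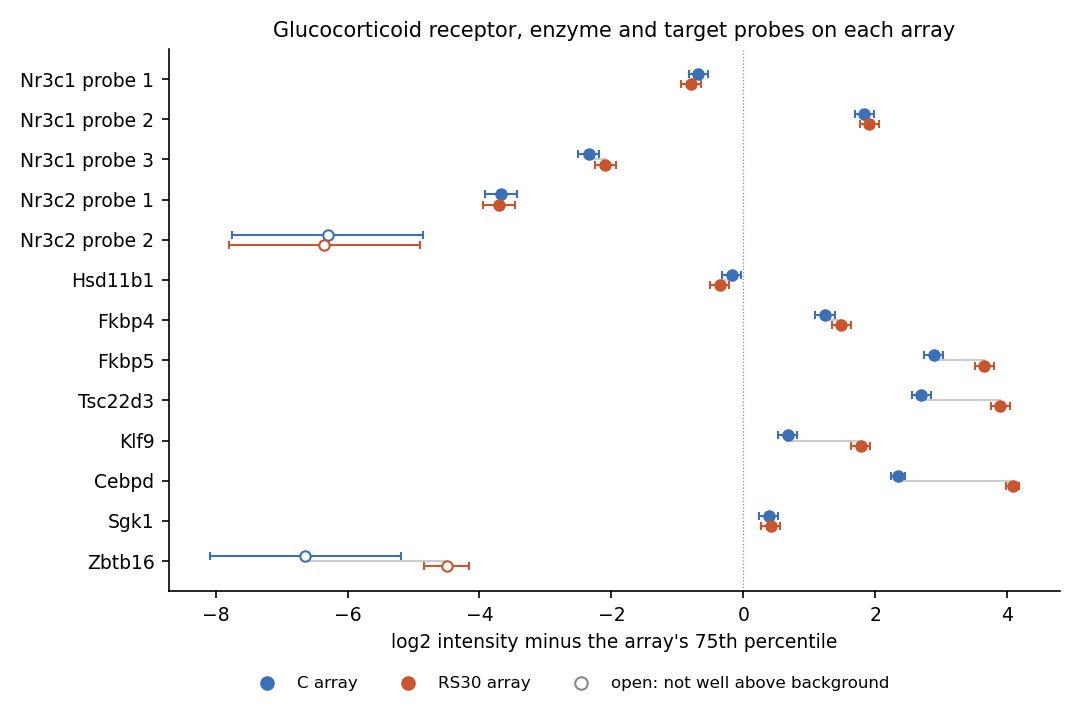
Normalized signal of each of the 13 member probes on the C array (blue) and the RS30 array (orange), in log2 units relative to the array's 75th percentile; bars are the scanner's spot error, and open circles were not well above background. The Fkbp5, Tsc22d3, Klf9, and Cebpd probes are separated between the arrays, whereas those of Nr3c1, Nr3c2, Hsd11b1, Fkbp4, and Sgk1 overlap or nearly overlap.

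Of the immunophilins that compete for the receptor complex, Fkbp5 was higher by several spot errors and Fkbp4 by little more than 1. Fkbp4 (FKBP52), which favors ligand binding and transport of the receptor to the nucleus, read 446 in C and 493 in RS30 (chr4:165448792-165448851, minus strand). Its difference was 0.25 with a spot error of 0.20, a 1.19-fold higher level. Fkbp5 (FKBP51), which lowers the affinity of the receptor and is itself a target of it, read 1400 and 2222 (chr20:6637600-6637659, minus strand). Fkbp5 was 1.70-fold higher after restraint, a difference of 0.76 (error 0.20), which did not reach 2-fold. Its difference exceeded that of Fkbp4 by 0.52 with an error of 0.29. Of the 21096 genes, 5.43% had a difference at least as high as that of Fkbp5.

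The remaining targets divided into 3 that were more than 2-fold higher on the RS30 array, 1 that was level, and 1 that was too dim to measure. Cebpd, a C/EBP family transcription factor of acute phase and fat cell gene programs, has 2 spots of its probe on each array, whose position the array files do not give. The spots read 958 and 966 in C and 3064 and 2912 in RS30, so the spots of the arrays did not overlap. Cebpd rose 3.33-fold, a log2 difference of 1.73 (spot error 0.14). Tsc22d3, which encodes GILZ, a glucocorticoid-induced protein that restrains inflammatory transcription factors, read 1227 in C and 2620 in RS30 (chrX:128336564-128336623, minus strand). Tsc22d3 rose 2.29-fold, a difference of 1.19 (error 0.20).

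Klf9, a zinc finger repressor induced by glucocorticoids in many tissues, read 301 in C and 606 in RS30 (chr1:226445625-226445684, plus strand). Klf9 rose 2.15-fold, a difference of 1.11 (error 0.20). Sgk1, a kinase that regulates ion channels and transporters and is induced by both steroid receptors, read 247 and 235 (chr1:23501718-23501777, minus strand), a difference of 0.03 (error 0.20). The difference of Tsc22d3 exceeded that of Sgk1 by 1.16, and that of Klf9 exceeded it by 1.08, each with an error of 0.29. Zbtb16 (PLZF), a zinc finger factor of innate-like lymphocytes and a target in several tissues, read 1.89 in C and 7.80 in RS30 (chr8:51934505-51934564, minus strand). Both Zbtb16 readings missed the background criterion, so no fold is given.

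In order of their differences, Cebpd came first, followed by Tsc22d3, Klf9, and Fkbp5. Cebpd exceeded Tsc22d3 by 0.54 with a spot error of 0.25. Tsc22d3 and Klf9 differed by 0.09 with an error of 0.29 and could not be placed in order. Klf9 exceeded Fkbp5 by 0.34 with an error of 0.29, which also leaves their order unresolved. The other 5 measured members, Fkbp4, Nr3c1, Sgk1, Nr3c2, and Hsd11b1, had differences between -0.18 and 0.25, none of them farther from 0 than 1.20 spot errors.

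Of the 10 members, 9 were well above background, each on both arrays, and 7 of the 9 had a difference above 0. Levels at least 2-fold higher after restraint were found for 3 of the 9 members, against a background of 3.46% of the 21096 genes. At least 2-fold lower levels were found for 0 of the 9, against 4.28%. Of the 19214 genes above background on both arrays, as the 9 were, 493 were at least 2-fold higher and 601 lower. The members were chosen with earlier results of these data known. Among the 5274 brightest genes, to which Cebpd, Tsc22d3, and Fkbp5 belong, 1.52% were at least 2-fold higher. Of all genes compared, 1.15% had a difference at least as high as Cebpd, 2.55% as high as Tsc22d3, and 2.95% as high as Klf9. The median difference of the 9 members was 0.25, beside 0.02 for all genes. Fat cell and erythrocyte markers were also higher on the RS30 array, with median differences of 2.19 and 2.58. Of the 3 neutrophil markers compared, S100a8 and S100a9 were higher, by 3.99 and 3.78, and Csf3r was level, at 0.11. These values are from bulk tissue, in which more cells of a type and more RNA per cell cannot be told apart.

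**Figure D2:**
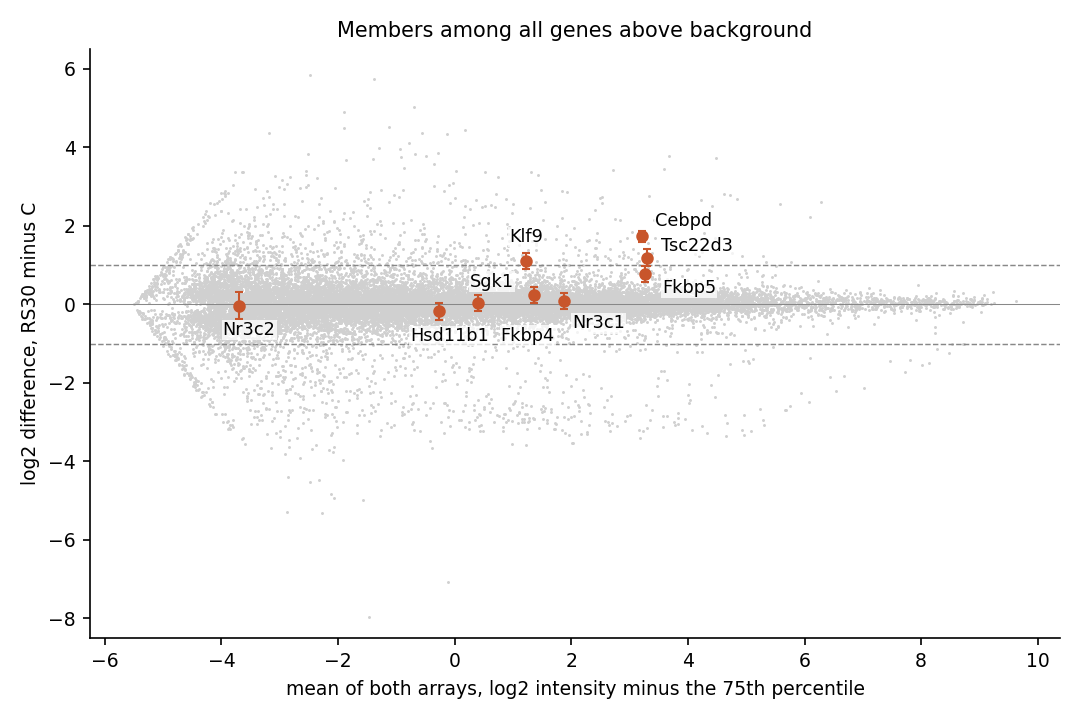
Log2 difference (RS30 minus C) against the mean normalized log2 signal of both arrays for 21096 genes (gray) and the 9 measured members (orange, bars are the spot error); dashed lines mark 2-fold. Cebpd, Tsc22d3, and Klf9 lie above the upper line at 1.73, 1.19, and 1.11, with Fkbp5 below it at 0.76.

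Among 32 other glucocorticoid targets, 28 were compared, of which 13 rose at least 2-fold, 1 fell, and 14 lay between. Of all 21096 genes, 3.46% were at least 2-fold higher and 4.28% lower. The median difference of the 28 targets was 0.87, and 21 of them were above 0, whereas 52.1% of all genes were above 0. The list was drawn from general knowledge but with earlier results of these data known, so it is not independent of these values. The metallothioneins, small proteins that bind zinc and copper, were among the highest. Mt2A read 647 in C and 8326 in RS30, a 13.8-fold rise, and Mt1a read 1944 and 6428, a 3.54-fold rise. Errfi1, a feedback inhibitor of the epidermal growth factor receptor, read 379 and 3821 and rose 10.8-fold.

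Dusp1, a phosphatase that switches off MAP kinases, read 17.4 in C and 76.4 in RS30 and rose 4.71-fold. Its C reading was not far above the lowest signal well above background on that array, 9.45, so this fold is uncertain. Per1, a circadian clock repressor with a receptor element of its own, read 818 and 2742 and rose 3.59-fold. Cxcr4, the receptor that guides lymphocytes toward CXCL12, read 604 and 1690 and rose 2.99-fold. The pair of RNA-binding proteins that speed decay of inflammatory messages also rose: Zfp36 read 72.6 and 170, and Zfp36l2 read 1566 and 3927. Their folds were 2.51 and 2.69, but the 3 probes of Zfp36l2 ranged from 0.46 to 1.43 on the log2 scale. The other 5 targets that rose had differences of 1.11 to 1.27 by the brightest probe of each, but 1 of them had another probe at 2.35. Arrdc2, an arrestin domain gene, was the 1 that fell, by 1.01 on the log2 scale, from 57.1 to 26.6.

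Judged by the brightest probe of each gene, the machinery that holds and assists the receptor differed little, apart from 1 heat shock gene. All 12 receptor chaperone genes were compared, with a median difference of 0.15, 1 past 2-fold higher and 0 lower. Hspa1a, the stress-inducible Hsp70, read 46.1 in C and 931 in RS30, a log2 difference of 4.43, and its other probe gave 2.26. Hsp90aa1, the inducible Hsp90 of the receptor complex, read 11799 and 14302 by its brightest probe, a difference of 0.38, but its 3 probes reached up to 1.66. Hsp90ab1, the constitutive Hsp90, read 11894 and 11858, a difference of 0.09. Of 12 coregulators, 10 were compared, with differences between -0.10 and 0.39, a median of 0.06, and 0 past 2-fold in either direction. The coactivator Ncoa1 had a difference of -0.10 and the corepressor Ncor1 one of 0.04.

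Genes of steroid supply and metabolism mostly gave signals near background. Of 16 such genes, 8 were compared, with a median difference of 0.25, 2 past 2-fold higher and 0 lower. Both that rose were above background on the RS30 array alone, and with genes above background on both arrays only, the median was 0.06 and 0 genes passed 2-fold. With plain ratios in place of the bounds, the median was 0.52. The folds of the 2 genes are lower bounds, computed against the lowest signal well above background on the C array, 9.45. Cyp11a1, the first enzyme of steroid synthesis, read 5.09 in C and 22.4 in RS30, at least 2.53-fold higher. Cyp11b2, aldosterone synthase, read 8.32 and 19.2, at least 2.17-fold higher. Hsd11b2, which inactivates corticosterone and so opposes Hsd11b1, read 3.19 and 7.24, below the background criterion on both arrays. H6pd, which supplies the cofactor that Hsd11b1 uses, read 65.9 and 56.2, a difference of -0.13.

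Relatives of the members were used to see whether the differences were shared within families. Of 24 relatives, 20 were compared, with 1 at least 2-fold higher, 1 at least 2-fold lower, and a median difference of 0.11. Cebpb, a relative of Cebpd with overlapping roles, read 438 in C and 1849 in RS30 and rose 4.52-fold, with its 2 probes at 2.08 and 2.18. The difference of Cebpb exceeded that of Cebpd by 0.44 with a spot error of 0.16. Cebpa and Cebpg had differences of 0.22 and 0.19. The TSC22 family relatives Tsc22d1, Tsc22d2, and Tsc22d4 had differences of 0.28, 0.82, and -0.13, but the 3 probes of Tsc22d2 ranged from 0.15 to 0.82. By its brightest probe, Tsc22d2 lay 0.37 below Tsc22d3, with an error of 0.29. Sgk3, like Sgk1, was level, at 0.05. Of the FKBP relatives, Fkbp9, Fkbp10, and Fkbp14 had differences of 0.88, 0.68, and 0.37, beside 0.76 for Fkbp5. Fkbp3, Fkbp2, Fkbp1b, Fkbp1a, Fkbp8, and Fkbp11 lay at 0.09, -0.05, -0.08, -0.08, -0.21, and -0.33.

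The Cebpd probe contains the letters AGAGAG or GAGAGA. Among the 1013 genes compared by a probe with such letters, the median difference was -0.46, with 408 genes at least 2-fold lower and 21 higher, and among the 20083 others it was 0.02. This split by sequence was made after values had been seen. The part of these letters in the difference of Cebpd was not tested.

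**Figure D3:**
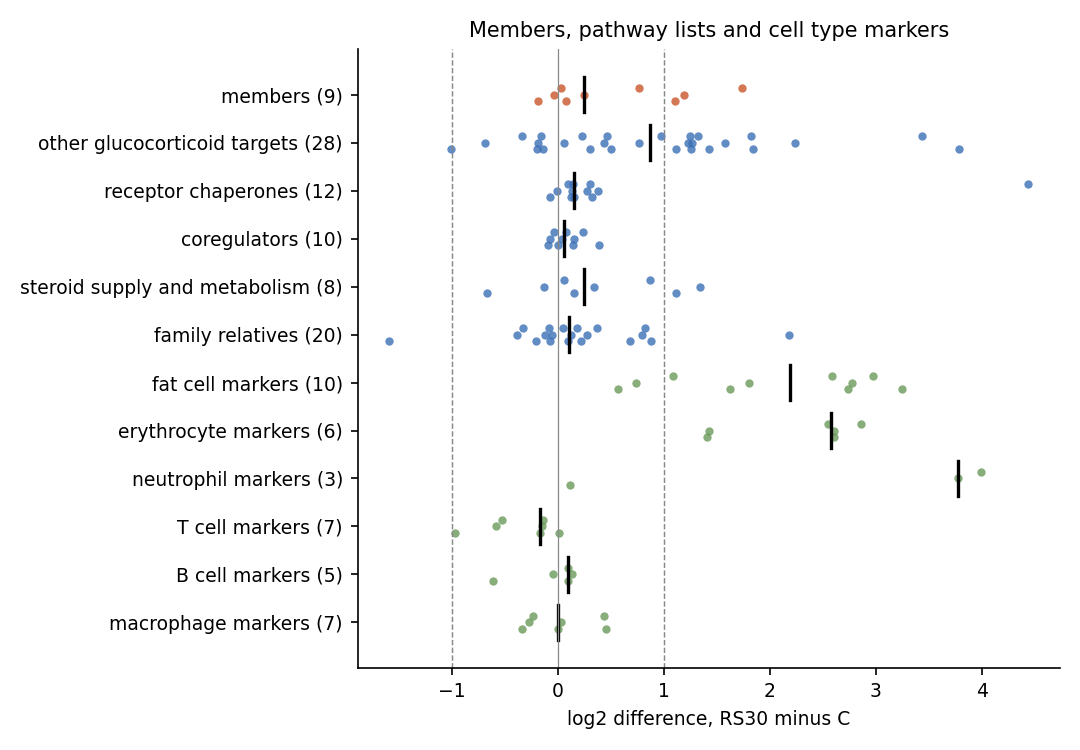
Log2 difference (RS30 minus C) of each gene compared, in the members (orange), the pathway lists (blue), and the cell type markers (green), with the number compared in brackets; black bars are medians, and dashed lines mark 2-fold. Values of genes above background on 1 array alone are lower bounds. The other targets have a median of 0.87 and the coregulators one of 0.06, while the fat cell, erythrocyte, and neutrophil markers have medians above 2.

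Markers of other cells were examined as whole lists. Of 11 fat cell markers on the array, 10 were above background, all 10 were higher on the RS30 array, and 8 of them passed 2-fold, with a median difference of 2.19. Their summed intensity, in units of the 75th percentile of the array, was 61.6 in C and 199 in RS30. Adipoq, a defining gene of fat cells, had a difference of 2.74, and the marker Plin1 missed the background criterion on both arrays. Fat cells were not measured apart from the nodes, so expression of the members in them, whether higher or level here, was not tested.

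Of 8 erythrocyte markers, 6 were above background and all 6 passed 2-fold, with a median of 2.58 and a summed intensity of 52.9 in C and 317 in RS30. Of 6 neutrophil markers, 3 were above background and 2 rose, S100a8 by 3.99 and S100a9 by 3.78, whereas Csf3r was level, at 0.11. The granule genes Mpo, Elane, and Camp missed the background criterion on both arrays. The part of fat, blood, neutrophil, and lymphocyte content in the differences of the members and of the other targets was not tested. Of the salivary gland markers, Aqp5, Bpifa2, and Muc19 missed the background criterion on both arrays as well, whereas Smgc met it in C alone, reading 13.9 in C and 2.09 in RS30.

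Across the 11 processing alternatives, the number of members past 2-fold higher ranged from 2 to 4. Klf9 fell below the threshold, at 0.93, when the background was modeled with normexp, which gave 234 genes at least 2-fold higher in all where the settings above gave 730. Zbtb16 was counted only without a filter on background, with a difference of 2.14 and a spot error of 1.49. The differences of Cebpd, Tsc22d3, and Fkbp5 ranged from 1.63 to 1.76, from 1.09 to 1.22, and from 0.67 to 0.79.

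**Figure D4:**
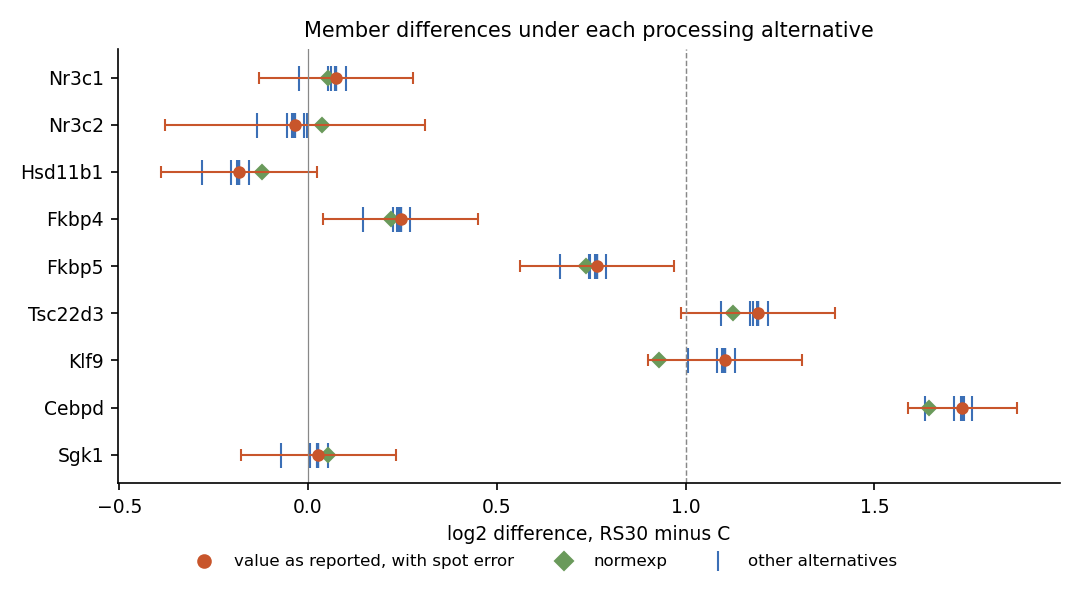
Log2 difference (RS30 minus C) of the 9 measured members as reported (orange, bars are the spot error), with normexp (green), and under the other alternatives (blue ticks); the dashed line marks 2-fold. Klf9 is the member that crosses the line, at 0.93 with normexp.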

How the data were processed

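Total RNA of cervical lymph nodes was labeled with Cy3 by the authors and hybridized to SurePrint G3 Rat GE 8X60K arrays with 60-base probes, and spots were extracted with Feature Extraction 11.5.1.1. The deposited scanner files hold 1 background-subtracted intensity per spot, not normalized between arrays. A second file deposited by the authors lists 1 log2 value for each probe, and 100% of its 45598 values lay within 0.1 of the normalized log2 values computed here. The table was used as an alternative.

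Of 58717 noncontrol spots on each array, 489 in C and 660 in RS30 carried outlier flags and were left out. Log2 intensities were averaged over the spots of a probe, and the 75th percentile was subtracted; the methods used the same shift and a 2-fold threshold. A probe counted as well above background when more than 50% of its spots did, and 0 noncontrol spots were saturated. A gene was represented by its brightest probe, and a gene above background on 1 array alone was set against the higher of its own signal and the lowest signal well above background on the other array. The difference then had a lower bound only. The 2 arrays share scan date, scanner, and scan. Depth does not apply to arrays, and their number, 1 per group, limits the precision. Probes repeated in 9 or 10 spots had a median SD of 0.052 log2 units in C and 0.055 in RS30 at intensities of 512 or more.

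All members were named with every probe. From the lists of pathway genes, genes past 2-fold were named, at most 8 per list by size, together with Per1, Dusp1, Errfi1, Hsd11b2, Hsp90aa1, Hsp90ab1, Ncoa1, Ncor1, and H6pd. Relatives of the members named beside them were chosen after their values were seen, as was Adipoq among the markers. The 1 relative past 2-fold lower is counted but not reported here. The members and the lists were chosen with earlier results of these data known. Of the marker lists not described in the results, the endothelial and stromal list had 7 of 7 genes above background, 1 past 2-fold higher and a median difference of 0.28, and the skeletal muscle list had 2 of 5 above background and 0 past 2-fold. Python 3.11.15, pandas 2.3.3, numpy 2.4.6, R 4.3.3, limma 3.58.1 (normexp), and matplotlib 3.10.9 were used, and the scripts were tested on simulated data. Probe positions are those of rn4 in the array files, and upstream windows are those of RefSeq on GRCr8; no position was converted between builds.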

Additional observations from a re-analysis of the deposited data

How the results depend on the processing

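With 1 array per group, no alternative bears on variation between rats, and dim probes such as those of Nr3c2 and Zbtb16 are limited by their signal over background. No paired analysis was possible because no test was made between 2 single arrays. Under 11 alternatives, 204 of 209 recomputed values stayed within the spot error (counts, within 1.5 times) of the reported value, and 5 moved further. Many could not move: the measured members were above background on both arrays, so settings of the filter or bounds left their differences unchanged. Settings that shift a whole array move every gene alike. No difference or median past 2-fold changed sign, but values near 0 did: without normalization Nr3c1 was -0.02, Sgk1 -0.07, and the coregulator median -0.04, and with normexp Nr3c2 was 0.04. The median difference of the fat cell markers was 1.43 with normexp, 1.85 with probes of a gene averaged, and 1.80 without a filter on background, against 2.19 as reported. Without that filter the median of the members was 0.51 and that of the other glucocorticoid targets 0.60. The number of other targets at least 2-fold higher ranged from 9 to 13, and 0 members were lower in any of these settings. Over all genes, 730 were at least 2-fold higher and 903 lower as reported. These counts were 234 and 378 with normexp, 493 and 601 with genes above background on both arrays only, and 2031 and 2148 without a filter. Of genes past 2-fold, 44.7% were higher as reported and 38.0% without normalization, which moved the median of all genes to -0.08. The cause of these shifts was not tested.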
